A study of Mus musculus with 6 samples.

Results

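Lipid droplets store triglyceride behind a coat of perilipin proteins. 9 genes that build, coat, empty or feed these droplets, or carry fatty acids to oxidation, were examined in B16F10 cells, an established line of mouse melanoma cells labelled as wild type. They were taken by symbol from a table of 27179 genes, and all 9 were found. They are Plin2, Plin3, Hilpda, Pnpla2, Dgat1, Dgat2, Cpt1a, Cd36 and Angptl4. RNA came from 3 samples given 0.01% OLO (olive oil) and 3 samples given 0.01% OZO (olive oil exposed to ozone), each for 6 h, and no untreated sample was analysed here. The level analysed here is 1 average per gene over these 6 libraries, so it describes both groups together and holds no difference between OZO and OLO.

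Triglyceride is assembled from glycerol and fatty acyl chains, with the diacylglycerol acyltransferases acting in the last step. Lipases release the fatty acids again, and carnitine palmitoyltransferase passes them into mitochondria for oxidation. PPARs are nuclear receptors that bind fatty acids and switch on many of these genes, and cells given an oil are commonly known to store part of it in droplets.

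Levels are given as CPM, the reads of a gene scaled to a common library size, and as its log2. Before the log2 was averaged over the libraries, 0.5 reads were added to each count, so a gene without reads stands at 0.0255 CPM. Reads per library given for a gene are the geometric mean of its reads plus 0.5, less 0.5. Each CPM stood for 19.6 reads in a library of average size (geometric mean 19641946 reads). Of all genes, 11878 reached 1 CPM and 6025 had no read in any library. The interval after each CPM is a 95% Poisson interval for counting error in 6 equal libraries. It leaves out the spread between libraries, which a single average cannot show. The labelled cell type matched its markers, since all 8 melanocyte genes were above 100 CPM, from Sox10 (109 CPM) through Mitf (288 CPM), Tyr (301 CPM), Mlana (545 CPM), Pmel (3066 CPM), Tyrp1 (5832 CPM) and Gpnmb (6757 CPM) to Dct (7052 CPM). None of the 6 adipocyte markers reached 1 CPM, and the highest were Cidec (0.123 CPM) and Retn (0.108 CPM), while Cfd had no reads. Of 6 macrophage markers, Cd68 (5.47 CPM) and Lyz2 (1.78 CPM) passed 1 CPM, and the defining Ptprc (0.0702 CPM) and Adgre1 (0.0441 CPM) did not. None of the 5 keratinocyte markers passed 1 CPM (Krt1, 0.0367 CPM, and Krt14, 0.0306 CPM, among the highest; Krt5 and Ivl without reads), and of 4 endothelial markers only Pecam1 did (1.21 CPM, with Tek next at 0.442 CPM).

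7 of the 9 genes were above 1 CPM, or 77.8%, against 43.7% of all genes in the table. The members were chosen for their function and with earlier results of these data known, so this is a description without a test. Their median was 24.0 CPM (log2 4.58), above 68.1% of the 21154 genes with reads. Such shares by CPM take no account of gene length. Per kilobase of the longest transcript the median member was above 74.2% of the genes with reads and an annotated length. Cd36 and Angptl4 averaged below 1 CPM, and every member had reads.

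**Figure D1:**
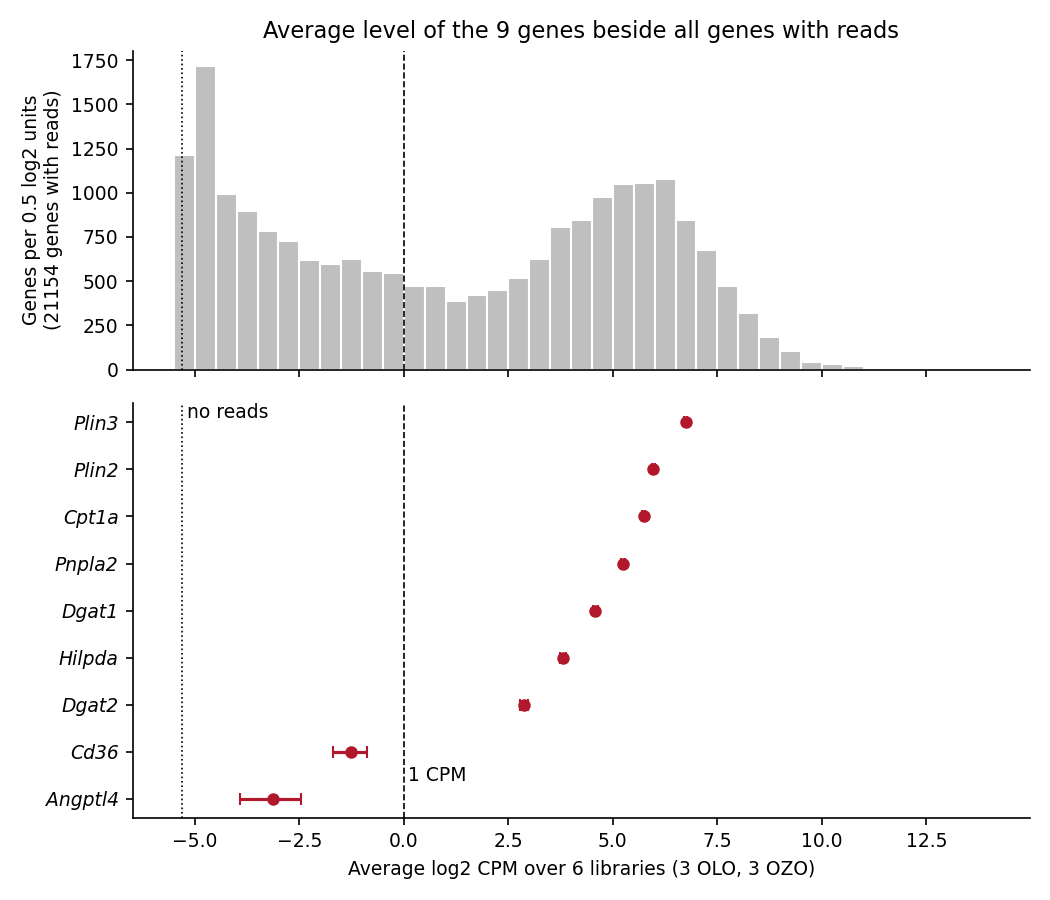
The upper panel counts genes with reads by average log2 CPM over 6 libraries, and the lower panel places the 9 genes on the same axis with 95% Poisson intervals for counting error. The dashed line marks 1 CPM and the dotted line genes without reads; 7 genes lie between 7.39 and 107 CPM, and Cd36 and Angptl4 lie left of 1 CPM.

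Plin2 and Plin3 encode the perilipins that most cell types use to coat their droplets. Plin3 averaged 107 CPM (95% interval 105 to 109), about 2099 reads per library. Its log2 CPM of 6.74 was above that of 89.2% of the genes with reads. Plin2 averaged 62.5 CPM (95% interval 61.1 to 63.9), about 1227 reads per library. Its log2 CPM of 5.97 was above 81.7% of the genes with reads. The other perilipins, Plin1, Plin4 and Plin5, averaged 0.0530, 0.329 and 0.223 CPM and stayed below 1 CPM. Plin1 and Plin4 are best known from fat cells and Plin5 from tissues that burn fat. Hilpda, a small droplet protein that inhibits the lipase encoded by Pnpla2, averaged 14.0 CPM (95% interval 13.3 to 14.6), about 274 reads per library. Hilpda was above 61.8% of the genes with reads.

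Dgat1 and Dgat2 encode unrelated enzymes for the last step of triglyceride synthesis. Dgat1 averaged 24.0 CPM (95% interval 23.1 to 24.9). Dgat2 averaged 7.39 CPM (95% interval 6.91 to 7.90), the lowest of the 7 members above 1 CPM, and rested on about 145 reads per library. Per kilobase of the longest annotated transcript, the level of Dgat1 was 3.89 times that of Dgat2, and it was 3.27 times with all exons and 2.53 times with the coding length. Dgat1 was therefore the higher of the pair under each length, and their counting intervals lay apart.

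Pnpla2 encodes adipose triglyceride lipase, which takes the first fatty acid from stored triglyceride. It averaged 37.8 CPM (95% interval 36.7 to 38.9) and was above 74.5% of the genes with reads. Cpt1a encodes the carnitine palmitoyltransferase that controls entry of long-chain fatty acids into mitochondria. It averaged 53.4 CPM (95% interval 52.1 to 54.8) and was above 79.5% of the genes with reads. Its relatives were lower. Cpt1c, the form typical of neurons, averaged 17.3 CPM, and Cpt1b, the form typical of muscle, averaged 0.523 CPM. Per kilobase of the longest transcript, Cpt1a was 2.33 times as high as Cpt1c and 68.5 times as high as Cpt1b. The ratio to Cpt1b was 45.1 with all exons and 102 with the coding length. Cpt1b rested on a geometric mean of 9.78 reads. By the method described below for Cd36, at least 1 of its libraries held 29 reads or more. Ratios of arithmetic means to Cpt1b could therefore be smaller.

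Cd36 encodes a surface receptor that takes up fatty acids and oxidised lipoprotein. It averaged 0.414 CPM, a geometric mean of 7.63 reads per library, and was above 37.0% of the genes with reads. At such depth the average still fixes which whole read counts are possible, because the product over libraries of 2 times the reads plus 1 must be a whole odd number. That product was 18446373 for Cd36, and 242 sets of 6 counts give it. The set with the fewest reads had 1, 4, 4, 5, 33 and 51 reads, 98 in all. In each of the 242 sets at least 1 library held 51 or more reads, or 6.69 times the geometric mean. Among 1140 genes with a geometric mean of 5 to 10 reads, the median of this smallest possible ratio was 1.72, and 1.75% of the genes had one as high as Cd36. Reads of Cd36 were thus spread unevenly over the libraries, and its counting interval of 0.311 to 0.546 CPM, which assumes equal libraries, understates its error. In a library of average size 51 reads are above 1 CPM, so the place of Cd36 below 1 CPM holds for the average only. Which libraries were high cannot be told from the average.

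Angptl4 encodes a secreted inhibitor of lipoprotein lipase and is a well-known PPAR target. It averaged 0.114 CPM (95% interval 0.0661 to 0.182), a geometric mean of 1.74 reads per library, and was above 25.6% of the genes with reads. Its product was 8019, which 29 sets of counts give. The set with the fewest reads had 1, 1, 1, 1, 4 and 5 reads, and in each set at least 1 library had 5 or more. This bound was 2.88 times the geometric mean, and 38.7% of the 1866 genes with 1 to 3 reads had a ratio as high. Its libraries were thus no more uneven, by this bound, than those of many genes of its depth. The counting interval of Angptl4 assumes equal libraries and rests on fewer than the 13 reads of the smallest set, so it is only approximate.

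The levels above do not correct for length, which a comparison between genes needs. Per kilobase of the longest transcript, Plin2 was first with 33.1 CPM per kilobase (95% counting interval 32.3 to 33.9), and Plin3 followed with 29.3 (28.8 to 29.8). Pnpla2 (14.4 CPM per kilobase) and Hilpda (14.2) came next, and their counting intervals overlapped. Dgat1 (12.7 CPM per kilobase) and Cpt1a (12.4) also overlapped. Dgat2 was lower, with 3.27 CPM per kilobase. Cd36 (0.122 CPM per kilobase) and Angptl4 (0.0344) closed the order, and whether they differ beyond the spread between libraries cannot be told, given the uneven reads of Cd36. Per kilobase, and in reverse to their order by CPM, Plin2 was above 89.3% and Plin3 above 87.8% of genes with reads and an annotated length. Hilpda was above 76.2% and Angptl4 above 17.0%. Both perilipins led the other members except with the coding length, where Hilpda, whose coding part is only 195 of 982 bases, came between Plin3 and Plin2 with 71.6 CPM per kilobase. The order of Plin2 and Plin3 also turned with the length, since Plin3 was 0.886 times Plin2 with the longest transcript, 1.59 times with all exons and 1.66 times with the coding length. The last 3 places, of Dgat2, Cd36 and Angptl4, were held under each of the 3 lengths.

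**Figure D2:**
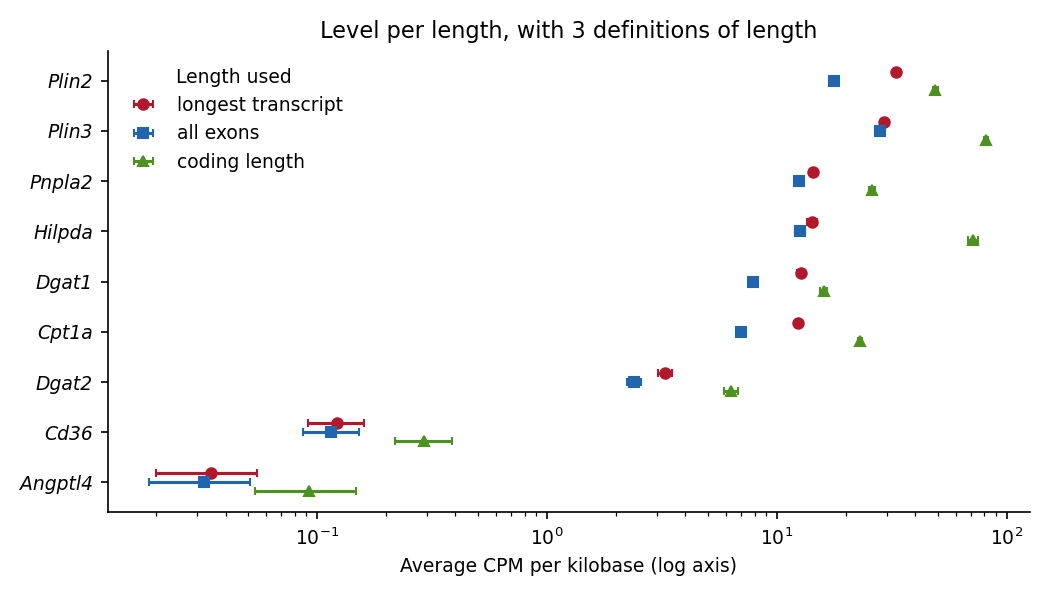
Average CPM per kilobase of the 9 genes on a log axis, with the longest transcript, all exons or the coding length as the length; bars are 95% Poisson intervals for counting error. Dgat2, Cd36 and Angptl4 keep the lowest places with each length, from 3.27 down to 0.0344 CPM per kilobase with the longest transcript.

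The members lie on 7 chromosomes, in GENCODE release M21 on GRCm38 (the mm10 build). Plin2 is on chromosome 4 from 86648386 to 86670060 on the minus strand, and Plin3 on chromosome 17 from 56277476 to 56292873 on the minus strand. Hilpda, the shortest, is on chromosome 6 from 29272488 to 29275446 on the plus strand and encodes 64 residues. Pnpla2 is on chromosome 7 from 141455198 to 141460743 on the plus strand, and Dgat2 on the same chromosome from 99153658 to 99182719 on the minus strand. Dgat1 is on chromosome 15 from 76502015 to 76511953 on the minus strand, and Cpt1a on chromosome 19 from 3322334 to 3385733 on the plus strand. Cd36 spans 107112 bases of chromosome 5, from 17781690 to 17888801 on the minus strand. Angptl4 is on chromosome 17 from 33773750 to 33781830 on the minus strand. For each of the 9 genes, 0 other annotated genes overlap its span on either strand.

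CpG dinucleotides are dense in the promoters of many broadly used genes and sparse in those of many genes used by few cell types, and their number was set beside the level. RefSeq promoter windows on GRCm38.p6 were found for 6 of the 9 genes, and those of Dgat1, Dgat2 and Angptl4 were not analysed here. To set Cd36, the only 1 of the 6 with a window below 1 CPM, beside a coat gene and the lipase, 3 windows are printed. The 250 bases before a RefSeq start run 5′ to 3′ on the strand of the gene, with each CpG in capitals. They are those of Plin2 (chr4:86670060-86670309, minus strand, 6 CpGs), Pnpla2 (chr7:141454938-141455187, plus strand, 12 CpGs) and Cd36 (chr5:17835897-17836146, minus strand, 3 CpGs). Each window precedes a RefSeq start, and GENCODE places the start of some members further upstream. The windows of Cd36, Plin3 and Cpt1a lie wholly inside the GENCODE span of the gene, and starts further upstream were not analysed here.
Plin2: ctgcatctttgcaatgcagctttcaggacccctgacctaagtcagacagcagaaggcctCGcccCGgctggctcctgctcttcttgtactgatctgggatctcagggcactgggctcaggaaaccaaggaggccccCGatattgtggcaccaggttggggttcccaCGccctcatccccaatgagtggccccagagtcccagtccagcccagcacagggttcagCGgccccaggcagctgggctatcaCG
Pnpla2: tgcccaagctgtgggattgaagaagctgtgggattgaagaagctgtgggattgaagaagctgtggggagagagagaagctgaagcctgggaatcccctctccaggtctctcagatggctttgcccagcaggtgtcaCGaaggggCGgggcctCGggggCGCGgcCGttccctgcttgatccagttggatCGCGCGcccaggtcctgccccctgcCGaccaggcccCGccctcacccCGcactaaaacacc
Cd36: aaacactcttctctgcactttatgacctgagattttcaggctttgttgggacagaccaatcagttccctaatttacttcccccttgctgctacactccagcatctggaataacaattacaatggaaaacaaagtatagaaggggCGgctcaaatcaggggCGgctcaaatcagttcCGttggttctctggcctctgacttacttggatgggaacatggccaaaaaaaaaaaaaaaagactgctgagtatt

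The Cd36 window had 3 CpGs and a GC content of 43.2%, the lowest of the 7 member windows on both counts. Plin3 had 7 CpGs and Cpt1a 14. Hilpda has annotated starts with 7 and 23 CpGs. The window with 23 holds 121 bases of a GENCODE exon of the gene, and was the only one of 7 member windows with the hypoxia response element core ACGTG on either strand, letters that 16.6% of all 32851 windows hold. The E-box CACGTG holds these letters too. For a gene with several windows the one with most CpGs was used. Over the 18458 genes with a window and a level, 10.7% of those with at most 4 CpGs were above 1 CPM, against 41.3% with 5 to 9, 69.5% with 10 to 14, and 82.3% with 25 or more. Plin2 and Plin3, with few CpGs, were far above the median of their class (log2 CPM of -1.34), and Cd36 was above the median of its own (-5.03). Pnpla2 (5.24) and Cpt1a (5.74), with 12 and 14 CpGs, were also above the median of their class (3.56). Hilpda, by its window with 23 CpGs, was below the median of its class (4.82).

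**Figure D3:**
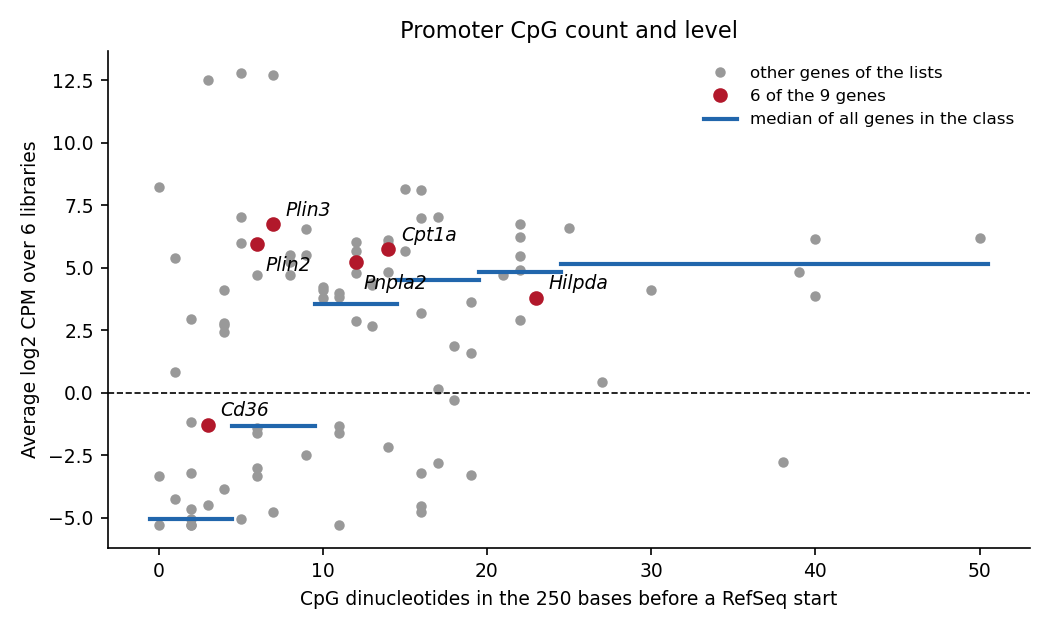
Number of CpG dinucleotides in the 250 bases before a RefSeq start against average log2 CPM, for the 6 members with a window and the other genes of the pathway and marker lists; blue lines are medians of all genes in classes of CpG number, and the dashed line is 1 CPM. Cd36, with 3 CpGs, is the only 1 of these 6 members below 1 CPM, while Plin2 and Plin3 are high with 6 and 7. Angptl4, also below 1 CPM, has no window here.

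The pathway was described by 6 lists with 98 genes in all, of which 70 (71.4%) were above 1 CPM. Without the 9 members, 63 of 89 genes (70.8%) were. The carnitine shuttle and oxidation list was the most complete, with 27 of 28 genes above 1 CPM and a median of 42.1 CPM, and Cpt1b was its exception. Hadha (277 CPM) and Hadhb (132 CPM), the subunits of the mitochondrial trifunctional protein, and Etfa (129 CPM), which takes electrons from acyl-CoA dehydrogenases, had the most reads. Cpt1a lay at 53.4 CPM in this list, and Hadha was 5.58 times as high per kilobase of the longest transcript. Cpt2, which completes the transfer that Cpt1a starts, averaged 19.7 CPM. It was 0.672 times Cpt1a per kilobase of the longest transcript and 0.433 times with the coding length but 1.18 times with all exons, so the order of this pair depends on the length.

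In the list for triglyceride synthesis, 12 of 14 genes were above 1 CPM, with a median of 14.9 CPM. Gpat4 (140 CPM), which adds the first acyl chain, Lpin2 (72.5 CPM), a phosphatidate phosphatase, and Agpat3 (69.5 CPM), which adds the second chain, had the most reads. Gpat4 was 1.99 times Dgat1 per kilobase of the longest transcript, 2.66 times with all exons and 6.36 times with the coding length. In the list for triglyceride breakdown, 6 of 12 genes were above 1 CPM. Lipa (130 CPM), the lysosomal lipase, Abhd5 (76.0 CPM), the activator of the Pnpla2 lipase, and Ddhd2 (56.5 CPM) had the most reads. Per kilobase Abhd5 was 1.67 times Pnpla2 with the longest transcript, 1.02 times with all exons and 2.78 times with the coding length. G0s2, which encodes an inhibitor of the same lipase related to Hilpda, had no reads in any library. A count of 0 over the 6 libraries allows up to 3 reads in all, by counting error only. With 0.5 reads added to each count, G0s2 stood at 0.0255 CPM, the value of any gene without reads. The upper end of its counting interval on this scale was 0.0568 CPM.

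The coat and assembly list had 9 of 17 genes above 1 CPM, and its other 8 had few reads. Rab18 (153 CPM), a droplet GTPase, Aup1 (109 CPM) and Ldah (108 CPM) had the most reads beside Plin3. Among genes for fatty acid entry and binding, 8 of 13 were above 1 CPM. Fabp5 (117 CPM), a fatty acid binding protein, had the most reads, followed by the transport proteins Slc27a4 (38.0 CPM) and Slc27a6 (18.4 CPM). Per kilobase of the longest transcript, Fabp5 was 296 times and Slc27a4 77.0 times as high as Cd36. With the coding length Fabp5 was 979 times as high, and both ratios use the geometric mean of Cd36 (7.63 reads). Its arithmetic mean was at least 16.3 reads per library, so ratios of arithmetic means could be much smaller. Of the PPAR receptors, partners and targets, 8 of 14 were above 1 CPM. Rxra (70.6 CPM), the partner of each PPAR, Ppargc1a (63.9 CPM), a coactivator, and Ppard (30.2 CPM) had the most reads. Ppara averaged 1.37 CPM and Pparg 0.147 CPM, and Pparg rested on a geometric mean of 2.39 reads. Per kilobase, Ppard was 20.2 times Ppara with the longest transcript, 11.3 times with all exons and 23.5 times with the coding length. Against Pparg the same ratios were 117, 80.5 and 235. Cyp4a14, a PPARα target of liver, had no reads.

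**Figure D4:**
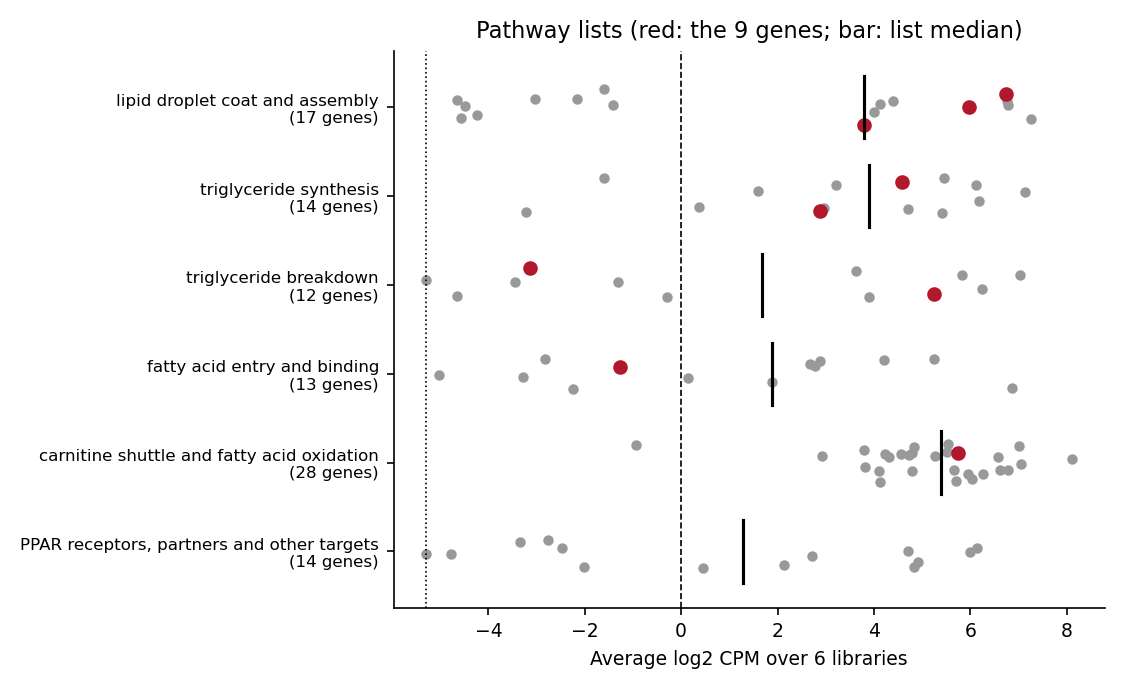
Average log2 CPM over 6 libraries of the genes in 6 pathway lists, with the 9 members in red, list medians as black bars, 1 CPM as a dashed line and genes without reads at the dotted line. The oxidation list lies almost wholly right of 1 CPM (27 of 28 genes), followed by triglyceride synthesis (12 of 14), while in the other 4 lists 50.0% to 61.5% of the genes do.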

How the data were processed

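According to the methods, the authors aligned reads of B16F10 libraries to mm10 with HISAT2 (2.1.0), counted them with featureCounts (2.1.1) and compared the groups with limma-voom (3.58.1). Strand use in counting is not given in the sources used here. From this, the authors deposited 1 average log2 CPM per gene over the 6 libraries, with 0.5 reads added to each count, and this column was analysed. The 5 other numeric columns hold the authors' own comparison of OZO with OLO (a log2 fold change, statistics and p-values) and were not used. Without values of each library, no groups were compared, no test was made and no error between samples could be given.

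Genes without reads share the lowest average, which gave the geometric mean library size. Read products matched whole odd numbers within 0.01 for 8941 of 8941 genes checked. Lengths and positions came from GENCODE M21 (longest transcript, all exons, or coding length), in which 23882 of 24126 Ensembl identifiers were found, and promoter windows from RefSeq (GRCm38.p6). The calculations were tested on simulated counts. Members and lists were chosen with earlier results of these data known. Named genes were the members, the 3 genes with most reads and those without reads in each pathway list, all melanocyte markers and the 2 highest of the other marker lists. Other genes were named outside this rule, after their values were seen. They are relatives of the members, Ptprc and Adgre1, Cfd, Krt5 and Ivl, Cpt2, Ppara and Pparg, and the genes under other observations. The read products and CpG counts were also chosen then. Python 3.11.15, numpy 2.4.6, pandas 2.3.3 and scipy 1.17.1 were used.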

Additional observations from a re-analysis of the deposited data

How the results depend on the processing

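The median percentile of the 9 members was 68.1 among genes with reads, 75.2 among all genes of the table and 54.6 among genes of at least 1 CPM (7 members). Their median level was 12.7 CPM per kilobase with the longest transcript, 7.84 with all exons and 23.0 with the coding length. With all exons 7 members, and with the coding length 9, moved beyond their counting interval. Depth limits Cd36 and Angptl4, with geometric means of 7.63 and 1.74 reads. No paired analysis was possible because only an average over both groups was used. For the same reason another normalization or test, another pseudocount, a low-count filter, a replicate block and leaving out each sample were not run.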

Other observations

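For some other weakly read genes of the lists, the average also fixed a high library or libraries without reads. Hsd17b13, a droplet protein of liver cells, has 1 possible set of counts, with 14 reads in 1 library and 0 in the other 5. Cidec, which fuses droplets in fat cells, had at least 1 library with 14 reads or more and at least 2 libraries without reads. Its geometric mean, taken with 0.5 reads added to each count and then removed, was 1.91. Plin5 had at least 1 library with 26 reads or more, against a geometric mean of 3.88. By contrast, the 6 counts of Plin4 could lie as close as 4, 4, 7, 7, 7 and 8 reads. Fabp4, a PPARγ target of fat cells, had 1 read in 1 library and 0 in the others. Which libraries held these reads cannot be told from the average.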
